A study of Mus musculus with 3 samples.

Results

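Messenger RNA of 8 leukocyte adhesion genes was followed in MigA9 cells during exposure to DB818: the integrin subunits Itgam, Itgal, Itgb2, Itga4, Itgb1 and Itgb7, the hyaluronan receptor Cd44 and the integrin ligand Icam1. They were chosen by name, as the genes whose array annotation equals 1 of 9 adhesion gene symbols. The remaining symbol, Selplg, which encodes the selectin ligand PSGL-1, matched no probe and is not analysed here. The 8 genes stand among 11010 genes measured on every array. They had 20 probes, of which 14 were well above background in both channels on all arrays, 1 on some of them and 5 on none. The accession of 13 of these probes belongs to a RefSeq transcript of the same gene, and the other 7 carry accessions that the RefSeq table does not list.

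MigA9 is a mouse hematopoietic cell line transformed by the homeobox protein Hoxa9 and grown in medium with GM-CSF-conditioned supernatant, and DB818 is a compound that has been studied for blocking the contact of HOXA9 with DNA. The treated cells received 2.5 µM DB818 for 6, 12 or 24 h, the untreated cells were the same Hoxa9-transformed line without the compound, and each time had 1 two-colour array with the treated RNA in Cy5 and the untreated RNA in Cy3. As a model this is 1 line that carries the transforming Hoxa9 in treated and untreated cells alike, and the sources used here do not say whether the untreated RNA was 1 preparation or 3. The question posed by the design is which transcripts differ from untreated cells at each time of exposure. Values are log2 ratios, treated over untreated, unless a level or a fold is named.

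Integrins are receptors made of an alpha and a beta subunit that bind cells to each other and to the matrix, and they signal in both directions across the membrane. In myeloid cells the beta 2 family, Mac-1 (Itgam with Itgb2) and LFA-1 (Itgal with Itgb2), binds ICAM-1 and other ligands during arrest on endothelium and phagocytosis. VLA-4 (Itga4 with Itgb1) and its relative with Itgb7 hold progenitors to VCAM-1, fibronectin or MAdCAM-1, and CD44 binds hyaluronan. Surface levels of CD11b, the Itgam product, are a widely used sign of myeloid maturation.

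All 9 myeloid and progenitor markers examined (Ptprc, Spi1, Csf2ra, Csf2rb, Mpo, Elane, Kit, Cebpa and Hoxa9) were above background in both channels on every array. Beside the rise of Itgam, 3 of these 9 rose (Kit with a mean of 0.32, Hoxa9 0.23 and Csf2ra 0.17), 4 fell (Mpo -0.67, Elane -0.62, Spi1 -0.29 and Cebpa -0.13) and 2 did not pass, by limma's adjusted test of the mean, and their part in the result was not tested. Over all genes 20.0% rose and 7.83% fell by that test. Mpo, Hoxa9 and Cebpa were not called on the scanner's processed signals. Mpo was also not called (-0.17) where arrays were median-centred rather than loess-normalised. Of 19 markers of T cells, B cells, erythroid cells, megakaryocytes, endothelium and fibroblasts, 1 (Gp1bb) was above background in both channels on every array, and 10 were above background on no array. Repeated spots of 1 probe scattered by 0.044, 0.034 and 0.051 (SD of the log2 ratio) on the 6, 12 and 24 h arrays, and different probes of 1 gene by 0.13, 0.11 and 0.12. The scatter of repeated spots covers spotting and scanning only, and no time was repeated, so 3 arrays set the precision.

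Over the 3 times, 3 of the 8 genes rose (Itgam, Itgal and Icam1), 1 fell (Cd44) and 4 did not pass (Itgb2, Itga4, Itgb1 and Itgb7), by limma's test of the mean ratio against 0 with Benjamini-Hochberg adjustment over all genes at 0.05. Of all 11010 genes, 20.0% rose and 7.83% fell by the same test, which is 27.8% in either direction. All sizes were small: the highest ratio of any of the 8 genes at any time was 1.34-fold (Itgam, 6 h) and the lowest 0.854-fold (Cd44, 24 h). The median of the 8 mean ratios was 0.12, beside 0.029 over all genes. At single times 6 of the 8 genes lay above 0 at 6, 12 and 24 h alike, as did 60.6, 60.2 and 60.5% of all genes. Itgam was the 1 gene of the 8 with a log2 ratio of at least 0.32 at 6 h and at 12 h, and Itgam and Itgal were so at 24 h, a size that 1.90, 1.42 and 2.77% of all genes reached. None of the 8 (0 of 8) was at or below -0.32 at any time, beside 0.681, 0.672 and 1.42% of all genes. The test treats the 3 times as replicates, and in bulk RNA fewer cells of a type and less RNA per cell cannot be told apart. A dye bias or a deviation of the untreated RNA common to the arrays adds to a gene's mean without entering its error, and it cannot be told apart from treatment. On the scanner's processed signals, which balanced rises and falls over all genes (47.9% of calls were rises, against 71.8% in the values above), 1 of the 8 genes rose (Itgam) and 0 fell.

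**Figure D1:**
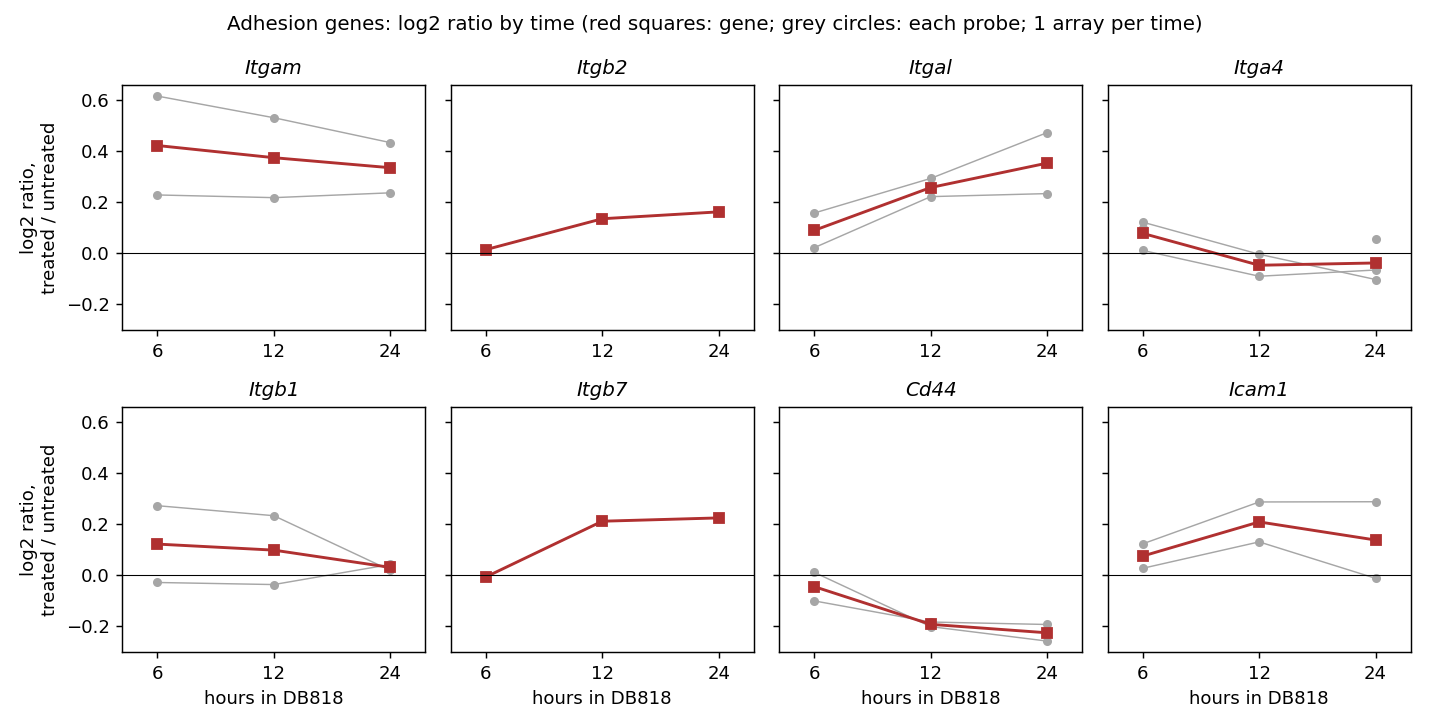
Log2 ratio of treated over untreated cells (y axis) against hours in DB818 (x axis, 1 array per time) for the 8 genes, with the gene value as red squares and each probe above background as grey circles. Itgam starts highest (0.42 at 6 h) and stays above 0.33, Itgal climbs to 0.35 at 24 h, and Cd44 descends to -0.23.

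Itgam, the alpha subunit of Mac-1, had the highest mean ratio (0.38 ± 0.03, SE, n = 3 arrays, limma adjusted p = 0.0033), above that of 99.3% of all genes. Its ratio was 0.42, 0.37 and 0.33 at 6, 12 and 24 h, or 1.34, 1.30 and 1.26-fold. Its level (log2 signal) was 8.14, 8.27 and 8.51 in treated cells at 6, 12 and 24 h, against 7.72, 7.89 and 8.18 in untreated cells on the same arrays. Treated cells were thus higher on each array, yet the levels of both channels climbed from array to array, and the treated level at 6 h lay below the untreated level on the 24 h array. The untreated level differed between arrays by 0.45, a wider span than for 98.2% of genes and wider than any of the 3 ratios. Ordered by level, the neighbours treated 6 h and untreated 24 h differed by 0.033, and no repeated array measures the scatter of levels between arrays.

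The 2 probes of Itgam gave ratios of unequal size. The probe of transcript NM_008401 stood at 0.62, 0.53 and 0.43 at 6, 12 and 24 h, and the probe of the cDNA AK170324 at 0.23, 0.22 and 0.24. Both rose when each probe was fitted on its own over all probes (means of 0.53 ± 0.04 and 0.23 ± 0.03, SE, limma adjusted p = 0.0014 and 0.0041). The descent of the gene's ratio with time came from the first of these probes, while the other stayed level. Itgam passed the test under every alternative that was run, with means from 0.23 (the AK170324 probe alone) to 0.53 (the NM_008401 probe alone), and with 0.40 on the processed signals of the scanner.

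Promoter windows are shown for Itgam, which had the highest mean ratio, and Cd44, which had the lowest, because both hold the hexamer GAGGAA, the core of sites bound by the myeloid factor PU.1. Each window is the 250 bases before the transcription start from RefSeq on GRCm38.p6, 5′ to 3′ on the gene's strand, with GAGGAA on either strand (TTCCTC where it lies on the opposite one) in capitals. The Itgam window is chr7:128062390-128062639 (plus strand), and that of Cd44 is chr2:102901666-102901915 (minus strand).
Itgam: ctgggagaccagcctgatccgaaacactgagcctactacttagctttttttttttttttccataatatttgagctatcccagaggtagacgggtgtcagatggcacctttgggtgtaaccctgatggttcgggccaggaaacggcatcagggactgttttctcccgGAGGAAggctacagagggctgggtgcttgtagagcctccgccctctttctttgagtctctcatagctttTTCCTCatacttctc
Cd44: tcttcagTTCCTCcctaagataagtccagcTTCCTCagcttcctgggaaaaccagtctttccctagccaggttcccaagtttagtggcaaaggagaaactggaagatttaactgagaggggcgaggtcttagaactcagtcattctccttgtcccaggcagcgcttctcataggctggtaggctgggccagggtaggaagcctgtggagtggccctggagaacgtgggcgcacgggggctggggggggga
The matches begin at -84 and -15 in Itgam and at -243 and -220 in Cd44, counted from the start site. A window was listed for 6 of the 8 genes (all but Itgal and Itgb2), and 3 of the 6 hold GAGGAA (Itgam, Cd44 and, at -9, Itgb1), as do 23.3% of 32851 promoter windows of this length. TGATTTA, the core of the paired HOX and PBX element, is in 0 of the 6 and in 2.61% of all windows, on either strand. A and T made up 50.4% of the Itgam window and 43.6% of the Cd44 window, beside a median of 47.6% over all windows. The hexamer occurs in a gene that rose and in a gene that fell. Spi1, which encodes PU.1, fell (mean -0.29, limma adjusted p = 0.0048), and a part of PU.1 in either change was not tested.

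Itgal, the alpha subunit of LFA-1, rose with a mean of 0.23 ± 0.05 (SE, n = 3 arrays, limma adjusted p = 0.018). Its ratio was 0.088, 0.26 and 0.35 at 6, 12 and 24 h, or 1.06, 1.19 and 1.28-fold, so the difference from untreated cells was widest on the last array. The level in treated cells was 9.03, 9.27 and 9.39, against 8.94, 9.02 and 9.04 in untreated cells, which moved little between arrays (0.10). Treated levels were higher on each array, and the treated level at 6 h lay just below the untreated level on the 24 h array.

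Both probes of Itgal had the same order of times, at 0.020, 0.22 and 0.23 for the probe of NM_008400 and 0.16, 0.29 and 0.47 for the probe of AK156251. The slope of the ratio was 0.13 ± 0.03 per doubling of time (SE, limma adjusted p = 0.058), higher than that of 97.2% of genes. It missed the threshold. It passed with the brightest probe alone (0.16) and with an otherwise equal fit restricted to probes that passed on every array (0.13), a setting added after the data were seen. In that restricted fit the slope of Itgal itself was unchanged, as both of its probes had passed on every array. The slope did not pass on the scanner's processed signals (0.16), with median centring (0.15), with plain background subtraction (0.14) or without the filter on dim probes (0.13). The mean no longer passed on the processed signals of the scanner (0.21) or with the 12 h array left out (0.22).

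Itgb2, the beta subunit that Itgam and Itgal share, did not pass (mean 0.10 ± 0.04, SE, n = 3 arrays, limma adjusted p = 0.084). Its 1 probe gave ratios of 0.012, 0.13 and 0.16 at 6, 12 and 24 h. The level was 9.83, 10.07 and 10.19 in treated cells, against 9.81, 9.93 and 10.02 in untreated cells, so treated and untreated cells were alike at 6 h within the scatter of repeated spots and the treated level was higher on the later arrays. Its slope was 0.074 ± 0.033 per doubling of time (limma adjusted p = 0.25). Without the 6 h array the mean was 0.15 and passed the threshold, and it was 0.37 and passed where arrays were median-centred rather than loess-normalised. That setting left a trend with brightness, and genes in the brightness decile of Itgb2 had a median of 0.29.

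Itga4, the alpha subunit of VLA-4, showed no called difference (mean -0.0044 ± 0.036, SE, n = 3 arrays, limma adjusted p = 0.93). Its ratio was 0.076, -0.049 and -0.040 at 6, 12 and 24 h. The level was 7.58, 7.46 and 7.35 in treated cells, against 7.51, 7.51 and 7.44 in untreated cells, and the groups overlapped. Of its 6 probes 2 passed on all arrays and make up the level, and 1 more passed at 6 and 24 h and enters the ratio there. The brighter probe (A_52_P223495) stood at 0.0091, -0.093 and -0.068, and the dimmer (A_52_P63892) at 0.12, -0.0060 and -0.11. With median centring the mean was -0.39 and passed as a fall, where genes in its brightness decile had a median of -0.17.

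Itgb1, the common beta 1 subunit, did not pass either (mean 0.082 ± 0.032, SE, n = 3 arrays, limma adjusted p = 0.098), with ratios of 0.12, 0.097 and 0.029 at 6, 12 and 24 h. Its level was 7.41, 7.36 and 7.27 in treated cells, against 7.29, 7.27 and 7.25 in untreated cells. The 2 measured probes, both annotated to NM_010578, disagreed at the early times. A_52_P351816 stood at 0.27, 0.23 and 0.018 and the brighter A_51_P286527 at -0.030, -0.038 and 0.041. On its own the dimmer probe rose (0.17 ± 0.05, limma adjusted p = 0.042 in a fit over probes) and the brighter one did not pass (-0.0094 ± 0.034, limma adjusted p = 0.86), so a direction for Itgb1 depends on the probe. With median centring its mean was below 0 (-0.11, past the threshold), yet above the median of genes in its brightness decile (-0.17).

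Itgb7, the beta subunit that pairs with Itga4 to bind MAdCAM-1 and with Itgae to bind E-cadherin, had the widest swing in level. Its 1 probe read 8.11, 8.86 and 9.09 in treated cells at 6, 12 and 24 h, against 8.12, 8.65 and 8.86 in untreated cells on the same arrays. The untreated level alone differed by 0.75 between the 6 and 24 h arrays, a span wider than for 99.7% of genes, and the treated level by 0.98, wider than for 99.8%. The ratio was -0.0085, 0.21 and 0.22. On the 12 and 24 h arrays treated cells were higher, and on the 6 h array the channels were alike within the scatter of repeated spots. Neither the mean (0.14 ± 0.05, limma adjusted p = 0.074, SE over 3 arrays) nor the slope (0.12 ± 0.04 per doubling of time, limma adjusted p = 0.12) passed, although the mean passed without the 6 h array (0.22) and with median centring (0.26). Genes in the brightness decile of Itgb7 had a median of 0.14 with median centring. What moved the untreated level between arrays was not tested.

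**Figure D2:**
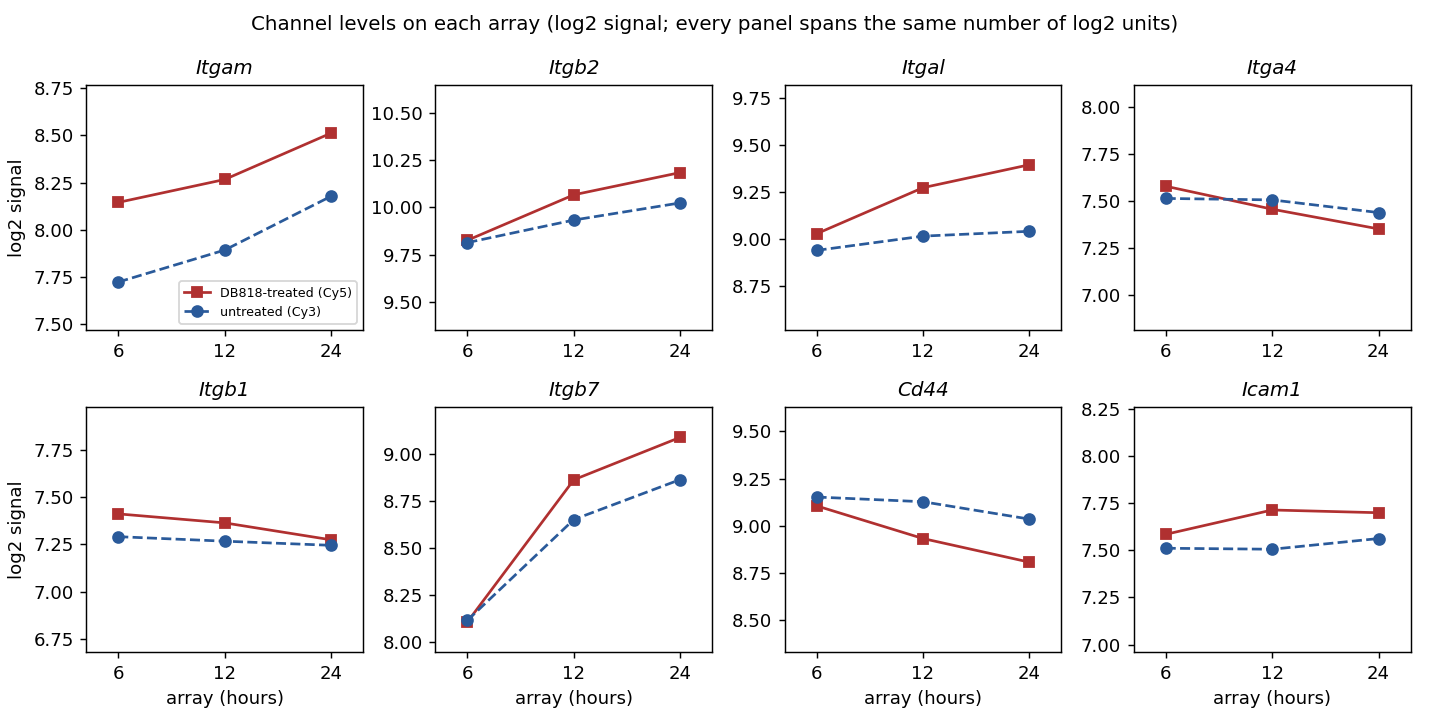
Log2 signal (y axis) in DB818-treated cells (red squares, Cy5) and untreated cells (blue circles, Cy3) on the 6, 12 and 24 h arrays (x axis), as the mean of each gene's probes that passed on all arrays, with 1 array per time and every panel spanning the same number of log2 units. In Itgam, Itgb2 and Itgb7 both channels climb from array to array, whereas the untreated level of Itgal, Cd44 and Icam1 is close to flat and the treated level departs from it.

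Cd44, the hyaluronan receptor, fell and had the lowest mean of the 8 genes (-0.16 ± 0.04, SE, n = 3 arrays, limma adjusted p = 0.033). Its ratio was -0.047, -0.20 and -0.23 at 6, 12 and 24 h, or 0.968, 0.874 and 0.854-fold. The level was 9.11, 8.93 and 8.81 in treated cells, against 9.15, 9.13 and 9.04 in untreated cells. Treated cells were lower on each array, with the treated level at 6 h inside the range of untreated levels and the later ones below it. The brightest probe (A_52_P229536) stood at 0.0094, -0.20 and -0.26, A_52_P523459 at -0.10, -0.19 and -0.20, and the remaining probe was not well above background in either channel. The slope of -0.091 ± 0.033 per doubling of time did not pass (limma adjusted p = 0.17). The mean no longer passed with the 12 h array (-0.14) or the 24 h array (-0.12) left out, on the scanner's processed signals (-0.24), with the brightest probe alone (-0.15) or without the filter on dim probes (-0.093), and with median centring it was 0.0045.

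Icam1, the immunoglobulin-family ligand of LFA-1 and Mac-1 and a classical target of NF-kB, rose (mean 0.14 ± 0.04, SE, n = 3 arrays, limma adjusted p = 0.029), except that with median centring its mean was -0.071. Its ratio was 0.074, 0.21 and 0.14 at 6, 12 and 24 h. The level was 7.58, 7.71 and 7.70 in treated cells, against 7.51, 7.51 and 7.56 in untreated cells. Icam1 was the 1 gene of the 8 in which every treated level lay above every untreated one, as 18.3% of all genes did, and 0 of the 8 showed the opposite, as 7.92% of all genes did. The lowest treated level of Icam1 exceeded its highest untreated level by 0.022, less than repeated spots scattered on any array. The bright probe (BC008626) stood at 0.12, 0.29 and 0.29 and rose on its own (0.23 ± 0.04, limma adjusted p = 0.0088 over probes). The dim probe (NM_010493) stood at 0.026, 0.13 and -0.014 and did not pass (0.047 ± 0.039, limma adjusted p = 0.39). Its treated and untreated levels overlapped. Icam1 no longer passed with the 12 h array (0.11) or the 24 h array (0.14) left out, or on the scanner's processed signals (0.14).

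The change of the ratio with time was fitted as a slope against the log2 of time, in which a dye bias common to the arrays cancels. By limma's test adjusted over all genes, 0 of the 8 genes passed, beside 3.21% of all genes in either direction, and at an unadjusted p of 0.05 4 passed (Itgal, Itgb7, Itgb2 and Cd44), beside 20.0% of all genes. Slopes were upward for Itgal, Itgb7, Itgb2 and Icam1 and downward for Cd44, Itga4, Itgb1 and Itgam, with a median of -0.0061 beside -3.84e-05 over all genes. The ratio at 24 h minus that at 6 h was 0.26 for Itgal, 0.23 for Itgb7, 0.15 for Itgb2 and 0.063 for Icam1, and -0.18 for Cd44, -0.12 for Itga4, -0.092 for Itgb1 and -0.087 for Itgam. For Itgb7, Itgb2 and Cd44 most of this lay between 6 and 12 h (0.22, 0.12 and -0.15), with 0.013, 0.027 and -0.033 between 12 and 24 h. The 1 residual degree of freedom of this fit measures departure from a straight line only.

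**Figure D3:**
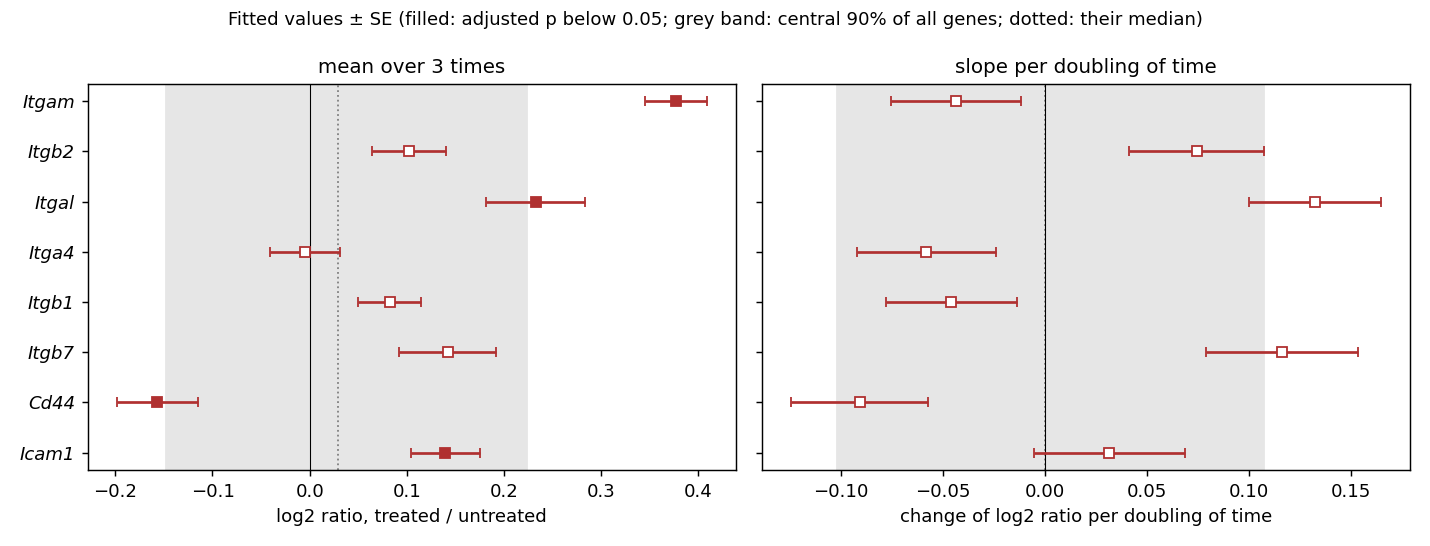
Mean log2 ratio over the 3 times (left) and change of the log2 ratio per doubling of time (right) for the 8 genes, as the limma estimate with its standard error, filled where the adjusted p was below 0.05, over the central 90% (grey band) and the median (dotted line) of 11010 genes. In the mean Itgam stands well to the right of the band, Itgal just to its right and Cd44 just to its left, and in the slope no gene is filled. With median centring Cd44 is at 0.0045 and Icam1 at -0.071.

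Likeness to a gene was measured as the Euclidean distance over the 3 log2 ratios among 7066 other genes with an established symbol. Nearest to Itgam was Clic4, an intracellular chloride channel protein, with ratios of 0.41, 0.37 and 0.35 at 6, 12 and 24 h (distance 0.019), followed by Cpd (0.070), Ptma (0.087) and Rnf125 (0.090). Nearest to Cd44 were Rsu1 (0.023), which encodes a partner of the integrin adaptor PINCH, the hemoglobin scavenger Hp (0.027), the surface antigen Ly6a (0.029) and the isocitrate dehydrogenase Idh1 (0.031). The distances from Cd44, and that of Clic4 from Itgam, lie below the scatter of repeated spots on any array (0.034 to 0.051). The distances of Cpd, Ptma and Rnf125 from Itgam lie closer together than that scatter. The order among the genes near Cd44, and among Cpd, Ptma and Rnf125, is thus not resolved. The ratios of Itgam used here are the mean of 2 probes that gave unequal sizes. In the RefSeq gene order Itgam is followed on chromosome 7 by Itgax and Icam1 on chromosome 9 by Icam4, and neither neighbour was measured on every array.

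The wider adhesion machinery was read from 8 lists of 127 genes in all, of which 77 were measured on every array. Of these 18 rose, 8 fell and 51 did not pass, so 33.8% were called beside 27.8% of all genes, and the median of their mean ratios was 0.036 beside 0.029. Among other integrin subunits, Itga6 (0.24 ± 0.05), the laminin receptor subunit, Itgb5 (0.22 ± 0.03) and Itgb3 (0.22 ± 0.04), which pair with Itgav in vitronectin receptors, rose, and Itga5 (-0.13 ± 0.03, but -0.71 on the scanner's processed signals), the fibronectin receptor subunit, fell (SE, n = 3 arrays each). That made 1 of 5 measured alpha subunits up and 1 down, and 2 of 3 measured beta subunits up and 0 down. Of 6 measured ligands and counter-receptors, Thbs1 (0.16 ± 0.03), a matrix protein that binds CD47, rose. Spp1 (-0.79 ± 0.16), the osteopontin ligand of alpha 4 integrins and CD44, and Vcam1 (-0.23 ± 0.07), the ligand of VLA-4, fell. Vcam1 stood at -0.016, -0.32 and -0.36 at 6, 12 and 24 h, the same order of times as Cd44 and as Spp1. Vcam1 was not called on the scanner's processed signals (-0.29), without the 12 h array (-0.19) or without the filter on dim probes (-0.18). Icam2, another ligand of LFA-1, had a mean of -0.16 (0.18 with median centring) that did not pass and a slope of -0.16 per doubling of time that did (limma adjusted p = 0.030).

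Of 15 other leukocyte adhesion proteins, 4 rose, 2 fell and 9 did not pass. Those that rose were Spn (0.29 ± 0.04), the sialomucin CD43, Cd47 (0.27 ± 0.04), a partner of integrins and ligand of SIRP alpha, Cd99l2 (0.13 ± 0.03, but -0.23 with median centring) and the tetraspanin Cd81 (0.12 ± 0.04). Adgre5 (-0.53 ± 0.05, but -0.13 and not called with median centring), the adhesion receptor CD97, and Cd99 (-0.18 ± 0.03), which takes part in transendothelial migration, fell. Adgre5 stood at -0.42, -0.49 and -0.68 at 6, 12 and 24 h. The slope of the tetraspanin Cd9 passed upward (0.23 per doubling of time, limma adjusted p = 0.023), with ratios of -0.0012, 0.079 and 0.45.

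**Figure D4:**
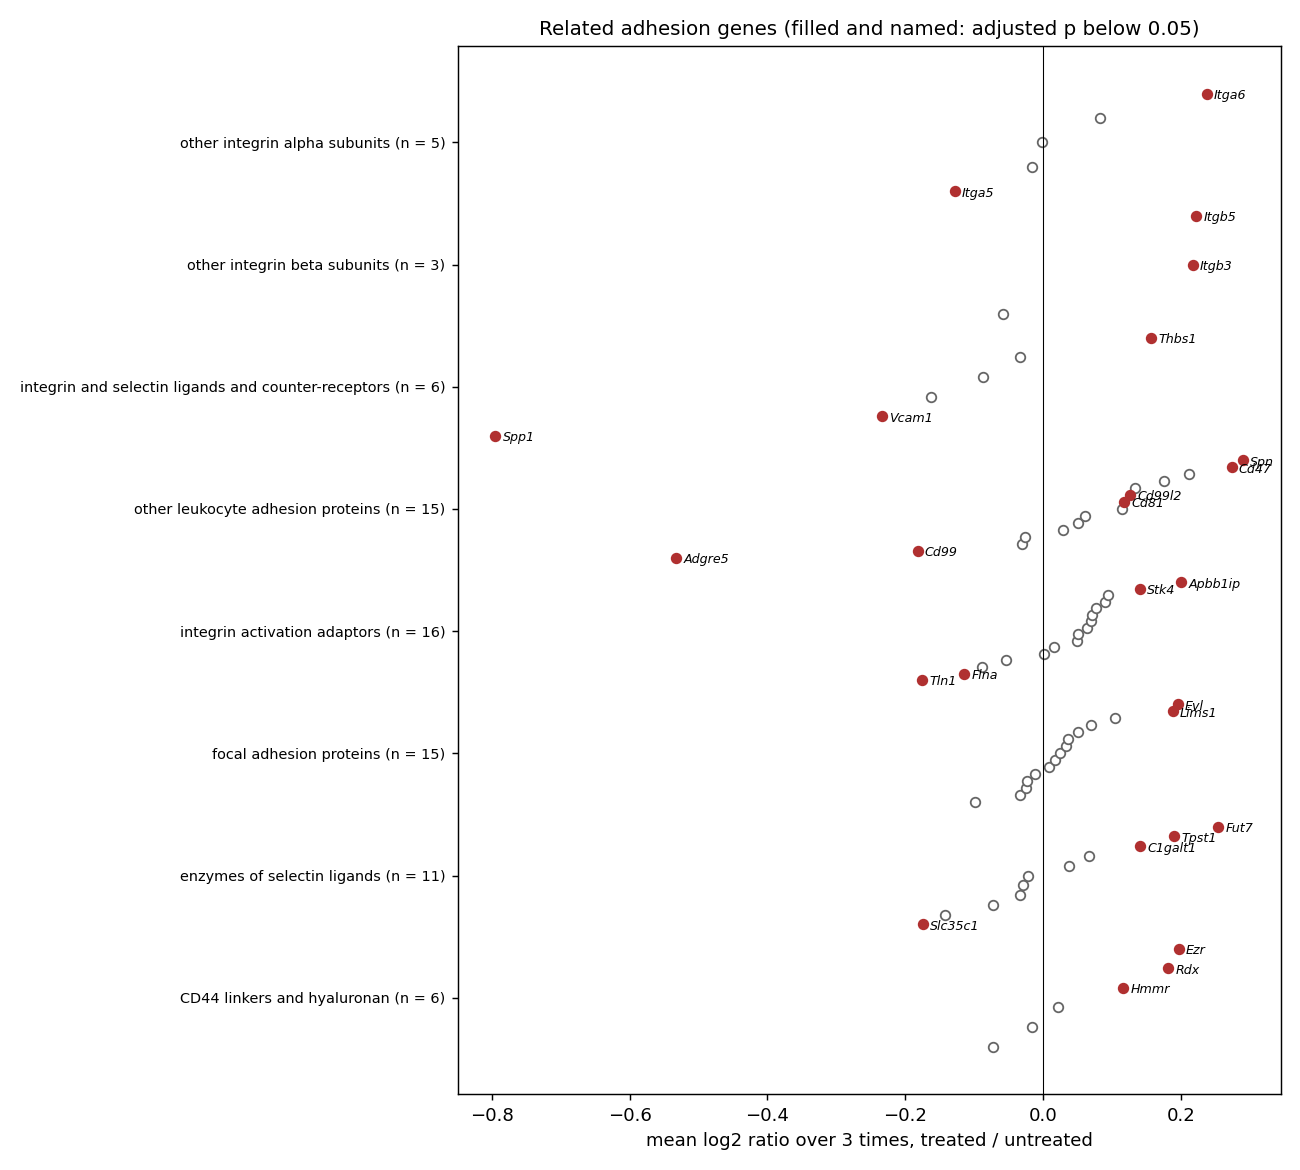
Mean log2 ratio over the 3 times, treated over untreated (x axis), of the 77 measured genes in 8 lists of the adhesion machinery (rows, spread vertically within a list for legibility), filled and named where the limma adjusted p was below 0.05. Calls lie on both sides of 0, from Spp1 at -0.79 and Adgre5 at -0.53 to Spn at 0.29, and with median centring Hmmr, C1galt1, Slc35c1, Lims1 and Cd99l2 change side.

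Of 16 measured adaptors of integrin activation, 2 rose, 2 fell and 12 did not pass. Talin, which binds beta tails to open the receptor, fell (Tln1, -0.18 ± 0.03), as did the actin linker Flna (-0.11 ± 0.03), which competes with talin for them. Apbb1ip (0.20 ± 0.04), the RIAM protein that brings talin to the membrane, and the kinase Stk4 (0.14 ± 0.03) rose. Among 15 focal adhesion proteins Evl (0.20 ± 0.06), an actin polymerisation factor, and Lims1 (0.19 ± 0.04, but -0.026 with median centring), the PINCH adaptor, rose, 0 fell and 13 did not pass. Of 11 enzymes that build selectin ligands, Fut7 (0.25 ± 0.06), the fucosyltransferase that completes sialyl Lewis x, Tpst1 (0.19 ± 0.04), a tyrosine sulfotransferase, and C1galt1 (0.14 ± 0.03, but -0.09 with median centring) rose. Slc35c1 (-0.17 ± 0.03, but 0.32 with median centring), the Golgi GDP-fucose transporter, fell. Ezr (0.20 ± 0.04) and Rdx (0.18 ± 0.04), which link CD44 to actin, and the hyaluronan receptor Hmmr (0.12 ± 0.03, but -0.27 with median centring) rose among 6 measured genes of that list, with 0 down. Of the 26 calls, 9 held in the same direction on the scanner's processed signals, 6 without the 12 h array and 15 with median centring, under which 5 changed sign. Another 6 kept their sign with median centring but were not called (Adgre5, Tln1, Flna, Stk4, Rdx and Itgb3). The 3 calls that held under each of these settings were Itgb5, Cd47 and Spn.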

How the data were processed

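RNA of treated (Cy5) and untreated (Cy3) MigA9 cells was read on 3 two-colour arrays, 1 per time. The authors scanned them with Agilent Feature Extraction 9.1.3.1, per the submitters' processing notes, and deposited foreground and background intensity for each spot, per the file headers. The deposited value table gives a log10 ratio for each spot, which differs by 0 from the ratio column of the scanner files. Aligner and annotation steps do not apply, and the sources used here do not date the gene names.

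Mean foreground and median background were corrected with normexp (offset 50) and loess-normalised within arrays with the limma package, version 3.58.1, run under R 4.3.3. The offset draws ratios of dim probes toward 0. Control spots and outlier spots were left out. A gene, named as in the files, took the mean of its unsaturated probes whose 2 channels were both well above background. Levels are channel values after scaling between arrays (Aquantile). The mean ratio (2 residual degrees of freedom, prior 4.85) and the slope on log2 time (1, prior 8.67) were tested over 11010 genes at a false discovery rate of 0.05. P-values measure the spread between times, and whether the cultures were separate is not stated. Alternatives covered background correction, normalisation (median centring over probes above background), dim probes, choice of probe, thresholds and each array left out. Fits of single probes and of probes passing on all arrays were added after the data were seen. The fits were tested on simulated data. Figures used Python 3.11.15 with matplotlib 3.10.9, pandas 2.3.3 and numpy 2.4.6.

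Genes named were the 8 adhesion genes, up to 6 called genes per related list with the largest mean ratios (Icam2 and Cd9 were added after their values were seen), the 4 genes nearest to the highest and the lowest of the 8, and cell markers. The genes, lists and tests were chosen with earlier results of these data known. Related genes matched by file name or an older symbol from the RefSeq table. Probe sequences are not used here, and 1 gene was left out of the related lists and is not reported here.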

Additional observations from a re-analysis of the deposited data

Results flagged for a closer look

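Itgb7 and Itga4 had ratios of opposite sign at 6 and 24 h. For Itgb7 the ratio at 24 h exceeded that at 6 h by 0.23 (0.22 and -0.0085), and for Itga4 the difference was -0.12 (-0.040 and 0.076). The difference between 2 single arrays was not tested, and the slope over all 3 times did not pass for either gene (limma adjusted p = 0.12 and 0.38). The 6 h value of Itgb7 and the 24 h value of Itga4 lie within the scatter of repeated spots around 0. At 6 h the brightest Itga4 probe stood at 0.0091, and dimmer ones at 0.12 and 0.099.

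On some arrays the Itga4 probes A_51_P400884 and A_52_P373392 were well above background in treated cells alone, and they gave no ratio there. The treated level was 1.03-fold the untreated level for A_51_P400884 at 6 h and at 12 h, and 1.02-fold for A_52_P373392 at 12 h. As log2 values these are 0.036, 0.042 and 0.033, beside a scatter of repeated spots of 0.044 at 6 h and 0.034 at 12 h. These values compare each array's channels, include a channel not well above background and are open to dye bias.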

How the results depend on the processing

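Counts depended on the scaling and on the 12 h array. Of the 8 genes, 3 rose and 1 fell in the mean. On the scanner's processed signals the counts were 1 and 0, with median centring 4 and 2, at a false discovery rate of 0.10 6 and 1, at 0.01 1 and 0, and none (0) fell with the brightest probe or without the dim-probe filter. Leaving out 1 array gave 1 to 5 rises and 0 to 1 falls. Over all genes the counts were 2200 and 862. They were 607 and 661 on the processed signals, 4160 and 4520 with median centring, 676 and 229 at 0.01, 3036 and 1305 at 0.10, and 554 to 2294 and 192 to 956 with 1 array left out. Of the related genes (18 and 8), 5 and 5 were called on the processed signals, 32 and 31 with median centring, 4 and 3 at 0.01, and 4 to 21 and 2 to 9 with 1 array left out. For slopes over all genes (206 up, 147 down) the counts were 0 and 0 on the processed signals (where no gene passed), 324 and 268 with the brightest probe, 50 and 29 with median centring, 72 and 58 without the filter and 57 and 40 with plain subtraction. Without the filter 27622 genes were tested, against 11010 with it. For slopes of related genes (1 and 2) the counts were 0 and 0, 6 and 4, 1 and 1, 0 and 1, and 0 and 1 under those settings, and 4 rose with probes passing on all arrays. Itgal was the 1 of the 8 with a called slope, with the brightest probe and with probes passing on all arrays. With median centring 4 of the 8 reached a log2 ratio of 0.32 at 12 h and 4 at 24 h, beside 12.3 and 16.4% of all genes, and 1 reached -0.32 at 6 h and 1 at 24 h, beside 26.5 and 26.6%. On the processed signals 1 reached -0.32 at 24 h, beside 7.55%. With median centring the signs turned for the means of Cd44 (0.0045), Icam1 (-0.071) and Itgb1 (-0.11) and the slope of Itgam (0.0019). That setting left a trend with brightness, with medians of -0.67 for the dimmest decile of genes and 0.41 for the brightest. In the brightness deciles of Cd44, Icam1 and Itgb1 the medians were 0.20, -0.028 and -0.17. The uncalled mean of Itga4 turned with 1 probe alone (0.0030), without the filter (0.0037), with plain subtraction (0.015) and with the 12 or 24 h array left out (-0.045 to 0.018 over the 3 omissions). With the brighter Itgb1 probe, its mean (-0.0094) and slope (0.035) turned, and with single probes so did the slopes of Icam1 (-0.020) and Itgam (0.0042). The cause was not tested. The other alternatives kept the direction of each mean and slope of the 8 genes. No paired analysis was possible because the groups share no more than replicate number 1, beyond the pairing of treated and untreated RNA that each array's ratio already holds. No array could be left out of the slope.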
